A study of Mus musculus with 9 samples.

Results

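Later pronuclear transfer (LPN) was set against early pronuclear transfer (EPN) in mouse embryos, to describe what differs in the embryo's RNA with the timing of the procedure. The comparison uses 6 of the 9 libraries of the series, LPN A, B and C against EPN A, B and C, and the 13672 of 19359 deposited genes that reached 1 CPM (reads scaled to a common total in every library) in at least 3 of these 6 libraries. The remaining 3 libraries, from embryos that had a sham transfer (SPN), served the study as controls; they entered no test here and are given as values beside the genes. Each library came from poly(A) RNA of a pool of 3 embryos at 34 h after fertilization, and the oocyte donors were B6D2F1 females of 8 to 12 weeks treated with gonadotropins. The EPN and LPN embryos both underwent a transfer and carry no transgene or deletion in the labels. The shared protocol text also describes cytoplasts made by removing the nucleus from germinal vesicle oocytes, without saying which groups received them. The labels give neither the hours of the early and later procedures nor the origin of the sperm, and are silent on whether the pools stem from different days or matings, so that p-values here describe the spread among libraries alone.

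In pronuclear transfer the maternal and paternal pronuclei of a zygote are moved together into another cytoplast, and the first DNA replication takes place while they are still separate. The series title names the first embryonic replication in relation to how the transfer turns out. In the mouse, the embryo inherits its first RNAs and proteins from the oocyte. The maternal RNAs are deadenylated and degraded from oocyte maturation onwards, and the embryo's own genome is switched on in a minor wave in the zygote and a major wave at the 2-cell stage. Ribosome assembly, mitochondrial and proteasome genes are among those taken up in the major wave. CPM is a share of a library's reads: in such pools, less RNA per embryo and fewer embryos or cells with that RNA cannot be told apart.

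The 6 library totals ran from 7611781 to 15559218 reads, so that 1 read was worth 0.0643 to 0.131 CPM; where no read was counted, the limit set by counting error was 3 reads, that is 0.193 to 0.394 CPM. The number of genes with at least 1 CPM was 13446 ± 491 in EPN and 13187 ± 595 in LPN (SD, n = 3; two-sided exact permutation p = 0.5, where 0.1 is the smallest possible). Markers of 2-cell embryos were abundant in all 6 libraries, with Zscan4d at 355–986 CPM in EPN and 493–925 CPM in LPN. Of 16 measured markers of cumulus and granulosa cells 3 were under 1 CPM in all 6 libraries, namely Hsd3b1, Cyp11a1 and Foxl2, the last 2 with no read. The most abundant were Gja1 (18.7–26.1 CPM in EPN and 13.2–45.5 CPM in LPN), Serpine2 (17.2–42.4 and 19.2–23.1 CPM), Amhr2 (8.69–23.8 and 15.5–20.8 CPM) and Tnfaip6 (11.5–23.7 and 4.37–15.5 CPM). The sum of all 16 was 72.2 to 136 CPM in EPN and 74.8 to 117 CPM in LPN. Sperm markers (11 measured, 2 of them under 1 CPM in all 6) summed to 82.7 to 134 CPM in EPN and 98.4 to 124 CPM in LPN, and blood markers (4 measured) to 39.1 to 87.6 and 15.6 to 41.3 CPM. Across genes, Spearman's rho was 0.906 to 0.926 between LPN libraries, 0.920 to 0.927 between EPN libraries and 0.862 to 0.906 between the groups. EPN A stood apart in 1 respect: the 7 tested Y-linked genes summed to 0.0723 CPM there, against 61.7 to 135 CPM in the other EPN libraries and 57.1 to 168 CPM in LPN, and Xist, which is expressed from the inactive X chromosome, was at 24.6 CPM in EPN A and at 0 to 7.42 CPM in the other 5. Its part in the results below was not tested, other than by leaving EPN A out.

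The timing of the transfer went with a change in 588 of 13672 genes, or 4.3% (limma adjusted p under 0.05). Of these, 268 rose in LPN (1.96% of tested genes) and 320 fell (2.34%), and 3211 genes had an unadjusted p under 0.05. The size of the called differences had a median of 1.29 on the log2(CPM + 1) scale and ran from 0.76 to 3.18, with 484 genes at 2-fold or more. The LPN and EPN ranges did not overlap for 583 of the 588, as for 28.1% of all tested genes. The median difference over all tested genes was -0.14, and the medians of gene lists are stated as distances from this value. With median-of-ratios or TMM scaling that median came to -0.02 or -0.03, and the share of calls that were higher in LPN went from 45.6% to 66.7% or 67.1%. Under median-of-ratios scaling 335 genes (2.45%) rose and 167 (1.22%) fell, and 252 of the 268 higher and 167 of the 320 lower genes passed on both scales. All 588 kept the sign of their difference under both scalings.

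**Figure D1:**
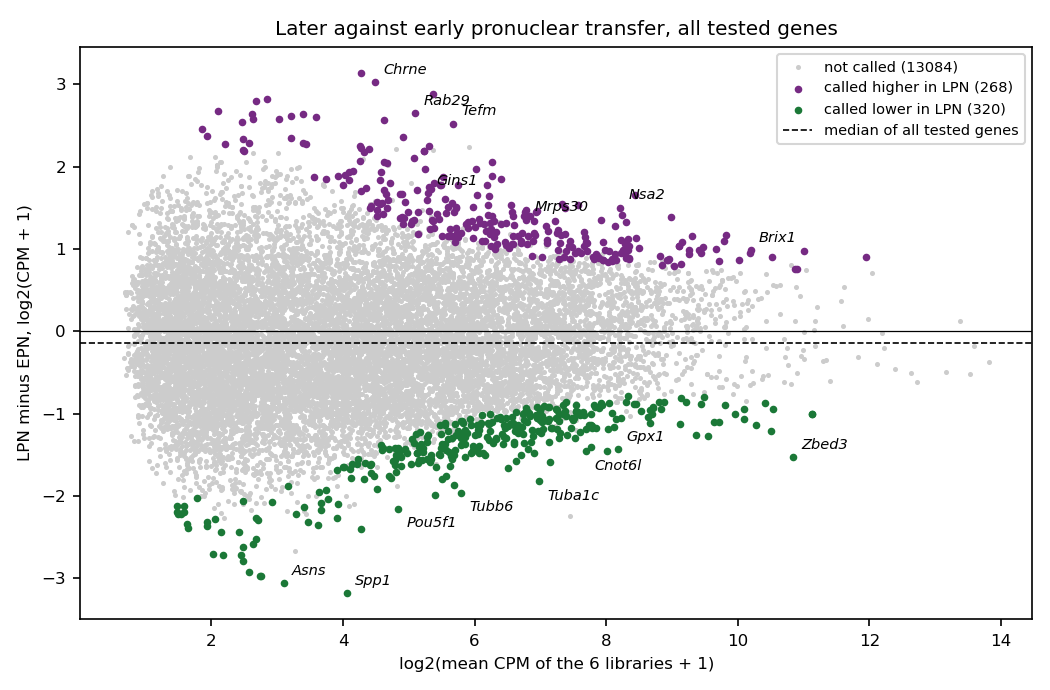
Each point is 1 of the 13672 tested genes, placed by its mean level in the 6 libraries (x axis, log2 of CPM + 1) and its LPN minus EPN difference (y axis, log2(CPM + 1)), with the 268 genes called higher in LPN in purple and the 320 called lower in green. The dashed line, the median of all tested genes, lies at -0.14, and called genes of low level show differences of up to about 3 either way while those of high level lie nearer to 1.

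The number of calls rested on single libraries. Leaving out LPN B left 4 called genes, leaving out EPN A 24, EPN C 34, LPN A 126 and EPN B 291, and leaving out LPN C gave 1026. Each of these fits also had fewer samples. LPN B had the fewest reads, 7611781 against 11936503 to 15559218 in the others compared. With reads thinned to the smallest library 578 genes were called. With edgeR's quasi-likelihood test on the recovered reads 59 genes passed (50 higher and 9 lower; 2770 had an unadjusted p below 0.05), while DESeq2 called 1419. A total of 56 genes passed in limma on all 3 scalings, in edgeR and in DESeq2, 49 of them higher in LPN and 7 lower. All of these tests used the same 6 libraries. Fam136a and Gm30502, both among the 49, had identical means and SDs in each group. Of the 34 gene lists described below 28 had a called member. This number was 7 without EPN A, 26 without EPN B, 5 without EPN C, 19 without LPN A, 1 without LPN B and 30 without LPN C, and 10 with edgeR. The summed level of a list did not overlap between the groups for 12 of the 34 (35.3%). LPN lay above EPN in 7 and below in 5. A call is therefore a statement on these 6 libraries.

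**Figure D2:**
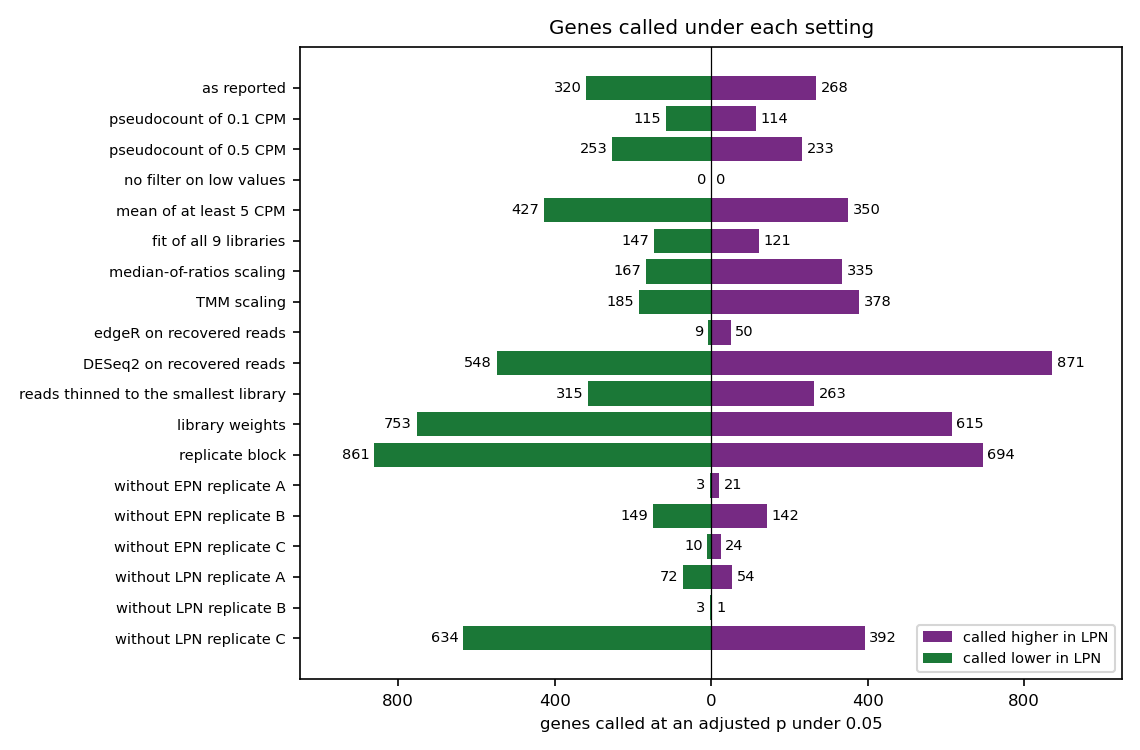
Bars give the number of genes called at an adjusted p under 0.05 under each setting, higher in LPN to the right (purple) and lower in LPN to the left (green). The count as reported is 268 and 320; leaving out LPN B gives 1 and 3, and leaving out EPN A 21 and 3.

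Among the 7 genes that fell in limma on all 3 scalings, in edgeR and in DESeq2, the clearest was Tuba1c. This gene encodes an alpha-tubulin of the microtubules. In the order A, B and C, used throughout, it was at 230.1, 172 and 187 CPM in EPN and at 57.0, 58.3 and 48.4 CPM in LPN, with 257, 114 and 172 CPM in SPN. The LPN libraries lay together, all below the lowest EPN and SPN library. The fall was 3.54-fold (log2 difference -1.82, SE 0.26, limma adjusted p = 0.00776), and it passed in 17 of 18 alternative settings. Tubb6, a beta-tubulin gene, went the same way, from 130.5, 62.3 and 70.8 CPM in EPN to 20.3, 16.9 and 25.6 CPM in LPN (68.3, 17.2 and 71.5 CPM in SPN; log2 difference -1.96, SE 0.35, limma adjusted p = 0.0105). SPN B lay within the LPN range of Tubb6.

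Pou5f1, the gene of the pluripotency factor OCT4, was at 57.9, 31.1 and 49.2 CPM in EPN and 9.83, 9.06 and 8.88 CPM in LPN. The LPN libraries were nearly level and below every EPN library, and the SPN libraries, at 27.0, 21 and 33.9 CPM, lay above LPN (LPN against EPN log2 difference -2.15, SE 0.39, limma adjusted p = 0.0119). Cnot6l encodes a deadenylase that shortens the poly(A) tails of maternal mRNAs. It fell 2.75-fold, from 343, 272 and 288 CPM in EPN to 104, 90.8 and 135 CPM in LPN (SE 0.25 on the log2 scale, limma adjusted p = 0.00871), with a wide spread of 161, 320.2 and 496 CPM in SPN. Gpx1, which encodes a glutathione peroxidase that removes hydrogen peroxide, was at 502, 427 and 339 CPM in EPN and 144, 143 and 177 CPM in LPN (log2 difference -1.43, SE 0.24, limma adjusted p = 0.0080). Here the SPN libraries, at 219, 252 and 166 CPM, lay nearer to LPN, and SPN C was within its range. The last of the 7, named after their values were seen because the naming rule did not take them, were Arid5b, which encodes an ARID-domain DNA-binding protein, with 105–198 CPM in EPN and 40.1–55.0 CPM in LPN, and Rab3il1, an exchange factor for RAB GTPases, with 42.0–90.4 and 10.9–20.3 CPM.

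Tefm is among the 49 genes that rose in limma on all 3 scalings, in edgeR and in DESeq2. It encodes the elongation factor of the mitochondrial RNA polymerase. It was at 17.2, 7.81 and 17.8 CPM in EPN and 76.2, 124 and 58.2 CPM in LPN, with 15.4, 37.1 and 31.8 CPM in SPN, and rose 5.75-fold (log2 difference 2.52, SE 0.39, limma adjusted p = 0.00778). No EPN or SPN library reached the lowest LPN value. Named after their values were seen, Rmnd1, needed for translation in mitochondria, went from 28.6–34.5 to 108–137 CPM, Cpt2, a carnitine palmitoyltransferase of fatty acid oxidation, from 8.02–17.3 to 41.4–63.2 CPM, and Ndufaf1, an assembly factor of complex I, from 5.02–8.67 to 20.5–31.7 CPM. Tomm7, a subunit of the import channel of the outer membrane, chosen in the same way, rose from 42.4–56.1 CPM in EPN to 112–126 CPM in LPN. Outside this set, Fbxl4, an F-box protein of mitochondria, was among the largest rises of all genes, from 1.59, 3.91 and 2.92 to 16.6, 19.6 and 14.6 CPM (limma adjusted p = 0.025; 3.51, 6.91 and 7.52 CPM in SPN). In edgeR it had an adjusted p of 0.0517.

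Nsa2, also in this set and needed to assemble the large ribosomal subunit, was at 147, 189 and 124 CPM in EPN and 517, 466 and 329 CPM in LPN (log2 difference 1.5, SE 0.25, limma adjusted p = 0.0080), and the SPN libraries lay between, at 254, 251 and 204 CPM. Parp2, a poly(ADP-ribose) polymerase that responds to DNA strand breaks, was at 99.2, 81.1 and 74.1 CPM in EPN and 285, 271 and 179.8 CPM in LPN (log2 difference 1.5, SE 0.26, limma adjusted p = 0.0105), again with SPN between, at 141, 126 and 106 CPM. Gins1, a subunit of the replicative helicase, had close values within each group, 17.9, 15.5 and 19.3 CPM in EPN and 51.5, 59.6 and 64.3 CPM in LPN (log2 difference 1.68, SE 0.33, limma adjusted p = 0.0158; 26.7, 48.0 and 48.8 CPM in SPN). Kat8, an acetyltransferase of histone H4, rose 2.83-fold, from 21.9, 27.0 and 31.3 to 78.7, 71.1 and 80.3 CPM (limma adjusted p = 0.0189), above all SPN libraries (31.8, 50.4 and 27.4 CPM). Chosen after the values were seen, Rpp38, a subunit of RNase P, rose from 30.6–37.6 to 87.0–158 CPM, Gemin6, of the SMN complex that assembles spliceosomal particles, from 41.9–60.4 to 110.0–168 CPM, and Cops3, of the COP9 signalosome, from 21.8–24.9 to 60.7–98.9 CPM. The netrin receptor gene Dcc (24.1–45.4 to 108–149 CPM) and the ankyrin repeat gene Ankrd22 (21.2–40.3 to 108–138 CPM), chosen likewise, have no role among the lists.

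**Figure D3:**
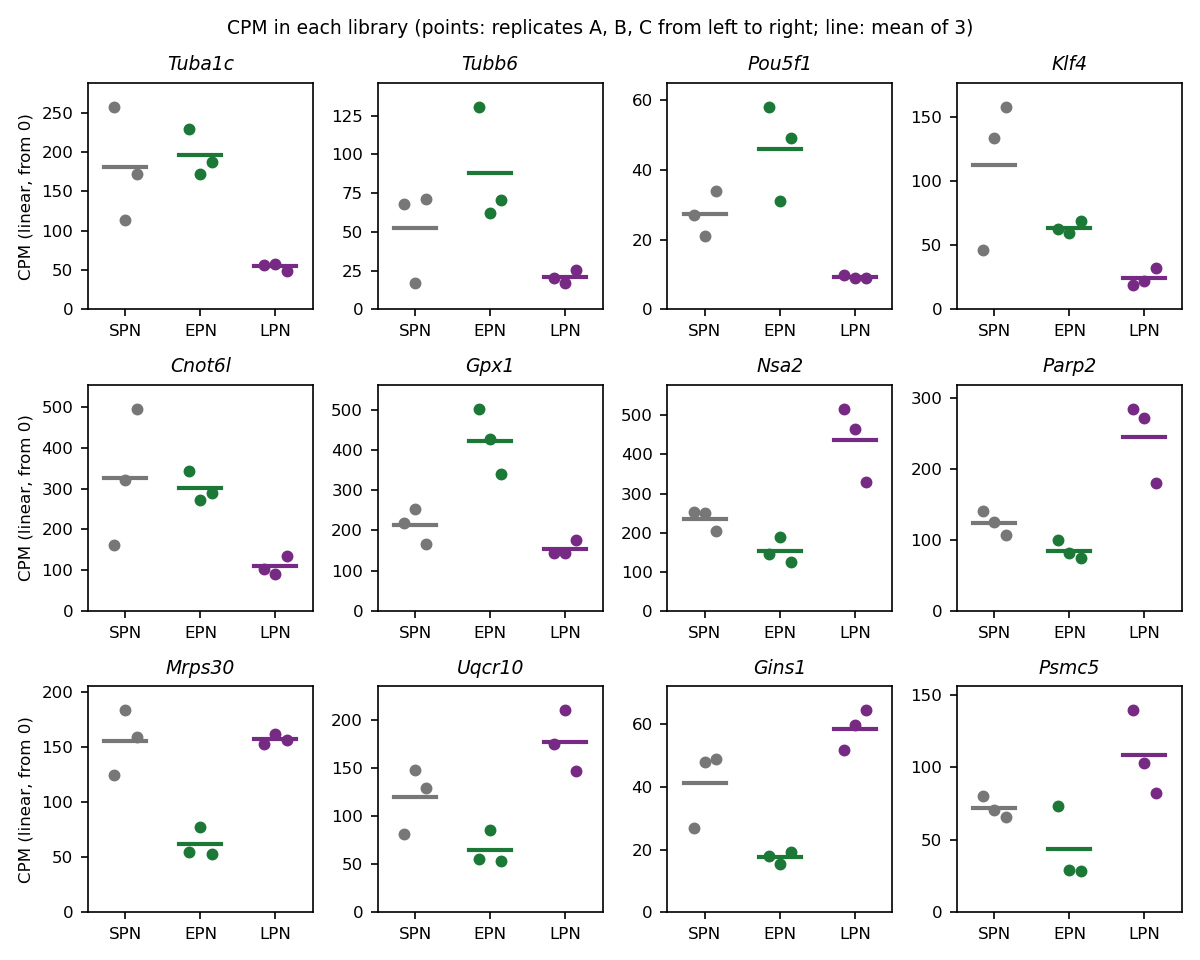
Panels give the CPM (linear axis from 0) of 12 genes in the 3 SPN, 3 EPN and 3 LPN libraries, as points for A, B and C from left to right and a line for the mean of 3. Tuba1c, Tubb6, Pou5f1, Klf4, Cnot6l and Gpx1 are lower in every LPN library than in any EPN library, the other 6 genes are higher in every LPN library, and SPN takes no fixed place between them.

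The naming rule took called genes with a mean of 5 CPM or more, no overlap of the groups and no predicted name. The 12 largest rises in LPN under this rule, Tefm and Fbxl4 among them, were in genes with at most 20.1 CPM in any EPN library. Chrne, a subunit of the muscle acetylcholine receptor, was at 3.61, 7.42 and 1.65 CPM in EPN and 29.9, 55.7 and 30.9 CPM in LPN (14.4, 36.4 and 11.9 CPM in SPN), a log2 difference of 3.03 (SE 0.50, limma adjusted p = 0.0080). Pnlip, which encodes pancreatic lipase, was at 20.1, 8.28 and 2.77 and 82.6, 91.6 and 37.3 CPM (limma adjusted p = 0.0106; SPN 22.6, 36.1 and 79.4 CPM), and Rab29, a GTPase of the Golgi and lysosome, at 13.6, 7.81 and 4.72 and 73.0, 60.7 and 38.8 CPM (limma adjusted p = 0.0080; SPN 17.5, 8.15 and 24.8 CPM). Of these 3 genes Rab29 alone had LPN values above every SPN library. Gja3, which encodes a connexin of the lens, was at 2.17, 2.73 and 1.80 CPM in EPN and 30.7, 17.7 and 11.4 CPM in LPN (limma adjusted p = 0.0199). The differences of Spesp1 (log2 3.14), Apon (2.82), Dmtf1l (2.79), Defa39 (2.64), Lrmda (2.58) and Ceacam1 (2.56) rested on EPN values that reached 0 or under 1 CPM in at least 1 library, and each was called in 7 to 11 of 18 alternatives. Spesp1, a gene of the sperm head, ranged more widely in SPN (0, 174 and 45.8 CPM) than between EPN (6.58, 4.84 and 0 CPM) and LPN (36.1, 16.3 and 46.1 CPM).

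The 12 largest falls under the same rule were in genes with at most 9.47 CPM in any LPN library, so that their folds depend on the pseudocount of 1. Spp1, the gene of osteopontin, an adhesion protein of the extracellular matrix, was at 25.6, 39.8 and 19.4 CPM in EPN and 0, 5.12 and 3.85 CPM in LPN (log2 difference -3.18, SE 0.62, limma adjusted p = 0.0157). Its SPN values, 5.95, 1.51 and 0 CPM, lay below EPN and close to LPN. Asns, which makes asparagine and is induced by the amino acid stress response, was at 23.6, 6.64 and 12.0 CPM in EPN and 3.21, 0 and 0 CPM in LPN (limma adjusted p = 0.0211; SPN 11.0, 2.84 and 0.787 CPM) and lacked any read in LPN B and C. Vegfa, a growth factor of blood vessels, also had no read in these libraries and 1.74, 0 and 0 CPM in LPN against 7.30, 7.42 and 18.1 CPM in EPN and 11.9, 39.1 and 51.4 CPM in SPN (limma adjusted p = 0.0201). In SPN and EPN all 6 libraries of Vegfa lay above LPN. Plat, tissue plasminogen activator, an mRNA stored in the oocyte, fell from 31.8, 15.4 and 22.6 to 2.83, 1.84 and 9.47 CPM (log2 difference -2.27, limma adjusted p = 0.0298; SPN 21.8, 9.92 and 10.5 CPM). Zfp800, a zinc finger gene, fell from 14.8–59.5 CPM to 3.10–6.30 CPM, and Mrc1, the mannose receptor gene, from 12.1–20.8 to 1.31–5.72 CPM, with SPN at 12.9–22.1 and 9.75–20.0 CPM. The other 6 of the 12 largest falls, Serpinb1a, Stambpl1, Ifngr2, Skil, Syne3 and Nucb1, had log2 differences from -2.97 to -2.27; each had at least 1 LPN library with no read.

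Promoter sequences of 5 genes are shown because the genes stand for the groups described here: mitochondrial gene expression (Tefm, Mrps30), ribosome assembly (Brix1, Nsa2) and the tubulins (Tuba1c). Each is the 250 bases before the annotated start in RefSeq on GRCm38.p6, matched by symbol, an older build than the GRCm39 of the deposited values, 5′ to 3′ on the gene's strand. Capitals mark matches on either strand to CCGGAAG, the core of many ETS-family sites, to GGGCGG, a GC box, or to CCAAT. The TATA box letters TATAAA and the E-box letters CACGTG were searched too.
Tefm, chr11:80142154-80142403, minus strand: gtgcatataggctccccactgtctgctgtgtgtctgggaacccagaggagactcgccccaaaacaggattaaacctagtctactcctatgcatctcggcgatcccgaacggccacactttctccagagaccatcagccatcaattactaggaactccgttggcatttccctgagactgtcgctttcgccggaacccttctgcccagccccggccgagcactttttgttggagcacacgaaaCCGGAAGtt
Brix1, chr15:10485938-10486187, minus strand: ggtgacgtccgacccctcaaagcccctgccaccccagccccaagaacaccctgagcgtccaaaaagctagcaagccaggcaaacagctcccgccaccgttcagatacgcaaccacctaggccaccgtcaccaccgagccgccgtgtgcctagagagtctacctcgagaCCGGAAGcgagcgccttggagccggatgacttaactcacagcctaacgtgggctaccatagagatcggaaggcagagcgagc
Mrps30, chr13:118387253-118387502, minus strand: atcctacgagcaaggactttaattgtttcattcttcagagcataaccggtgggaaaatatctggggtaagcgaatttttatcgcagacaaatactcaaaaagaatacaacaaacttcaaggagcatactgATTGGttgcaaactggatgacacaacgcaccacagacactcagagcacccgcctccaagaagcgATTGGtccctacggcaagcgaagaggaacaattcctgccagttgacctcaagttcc
Nsa2, chr13:97137927-97138176, minus strand: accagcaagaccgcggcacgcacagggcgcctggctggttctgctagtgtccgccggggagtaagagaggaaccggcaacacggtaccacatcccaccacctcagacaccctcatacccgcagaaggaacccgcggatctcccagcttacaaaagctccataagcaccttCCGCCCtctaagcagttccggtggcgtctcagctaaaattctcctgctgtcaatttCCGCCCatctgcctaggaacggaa
Tuba1c, chr15:99029641-99029890, plus strand: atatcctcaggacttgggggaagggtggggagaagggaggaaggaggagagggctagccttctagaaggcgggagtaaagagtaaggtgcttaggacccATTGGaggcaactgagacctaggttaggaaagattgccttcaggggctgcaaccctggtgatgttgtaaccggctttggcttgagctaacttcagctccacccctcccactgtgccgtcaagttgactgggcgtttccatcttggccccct
Tefm and Brix1 each held 1 ETS core, Mrps30 held 2 CCAAT boxes, Nsa2 held 2 GC boxes and Tuba1c held 1 CCAAT box. The ETS core was present in 19% of the 168 higher genes with a single listed promoter, in 11.2% of the 196 such lower genes and in 14.0% of all 8480 tested genes with one. The GC box was in 44.0% of higher, 62.8% of lower and 56.0% of all, and CCAAT in 34.5%, 39.3% and 38.6%. TATAAA was in 7.74%, 9.18% and 7.39%, and CACGTG in 7.74%, 6.63% and 8.25%. A match describes the letters and is not a site shown to be bound.

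Of 46 tested 2-cell-specific genes, which are transcribed briefly when the genome is switched on, 4 rose in LPN, none fell and 42 did not pass (8.7% against 1.96% of all genes); the median was 0.35 above that of all genes. Under median-of-ratios scaling 2 rose, with edgeR none, and without LPN C none rose and 2 fell. The calls were also lost without EPN A, EPN C or LPN B and came to 1 without EPN B or LPN A. The median was 0.22 without LPN B and 0.56 without LPN A. For the 33 members with an annotated length it was 0.23, and 0.06 against genes of like length. The summed level of the list overlapped between EPN (7923–10564 CPM) and LPN (8876–13735.5 CPM), and was 4605–7067 CPM in SPN. Pramel7, a PRAME-like gene, was at 101, 123 and 172 CPM in EPN and 207, 277 and 357 CPM in LPN (log2 difference 1.08, SE 0.27, limma adjusted p = 0.0327), and Tcstv3 at 286, 712 and 453 and 828, 770.3 and 1228 CPM (limma adjusted p = 0.0451). Both groups were fully apart for these genes, though EPN B and LPN B came close for Tcstv3. Zfp560 (75.5–107 to 157–174 CPM) and Eif1ad3 (262–433 to 464–748 CPM) were the others that rose. Tcstv3 and Eif1ad3 belong to multi-copy families, so the split of reads between copies is uncertain. Usp17le (log2 difference -1.30, limma adjusted p = 0.085), Usp26 (-0.85) and Usp17la (-0.81) lay the other way and were not called. In this list 12 members were higher and 4 lower in LPN without overlap, where 28.1% of all genes did not overlap. The best known members had overlapping groups: Zscan4d was at 521, 986 and 355 and 493, 925 and 699 CPM (log2 difference 0.27, SE 0.30, limma adjusted p = 0.622) and Zfp352 at 603, 708 and 653 and 712, 643 and 1082 CPM (0.28, SE 0.23, limma adjusted p = 0.491).

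Of 50 tested preimplantation transcription factors 2 rose, 2 fell and 46 did not pass (4% each way against 1.96% higher and 2.34% lower of all genes). Their relative median was -0.17, and -0.10 against genes of like length, -0.07 without EPN B, -0.04 without LPN A and -0.08 without LPN B. No member passed without EPN A, EPN C or LPN B, and 1, lower, with edgeR or without EPN B or LPN A. Leaving out LPN C gave 3 higher and 6 lower. Beside Pou5f1, Klf4, a Kruppel-like factor, fell from 62.7, 59.8 and 69.1 CPM in EPN to 19.4, 22.5 and 32.0 CPM in LPN (log2 difference -1.37, SE 0.32, limma adjusted p = 0.0288), below every SPN library (46.1, 134 and 158 CPM). Obox6, an oocyte-specific homeobox gene that is also expressed in cleavage embryos, rose from 806, 985 and 1304 to 2136, 2056 and 1534 CPM (log2 difference 0.90, limma adjusted p = 0.0356; SPN 1346, 796 and 529 CPM), and Nfyb, a subunit of the CCAAT-binding factor NF-Y, from 149.5, 174 and 154 to 245, 329 and 333 CPM (log2 difference 0.91, limma adjusted p = 0.0369). Obox6 missed the threshold under median-of-ratios scaling (adjusted p = 0.057).

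In the transcription machinery, 4 of 93 RNA polymerase II, general factor and Mediator genes rose and 3 fell (5 and 1 under median-of-ratios scaling). The relative median of the list was 0.23, and 0.36 without EPN B. No member passed with edgeR or without EPN A, EPN C, LPN A or LPN B, while leaving out LPN C gave 7 higher and 4 lower. The reported rises were 4.3% and the falls 3.23% of the list, against 1.96% and 2.34% of all genes. Those that rose were Taf12 (108–119.6 to 213–235 CPM) of TFIID, Gtf2e2 (55.0–65.6 to 101–136 CPM) of TFIIE, the shared polymerase subunit gene Polr2k (26.3–63.8 to 93.9–108 CPM) and Gtf2h2 of TFIIH, outside the naming rule, with a log2 difference of 1.36. The elongation factor gene Paf1 fell from 254–359 to 105–225 CPM, as did Taf3 (log2 -0.99) and Med30 (-1.06), both outside the naming rule. Chromatin and DNA methylation enzymes had 1 higher member of 93, Kat8, and 2 lower (1.08% and 2.15%, below the shares of all genes). The relative median was -0.25, with -0.16 without EPN C and -0.11 against genes of like transcript length, in 10 length classes. The lower 2 were Kmt2c, a histone methyltransferase (447, 331 and 377 to 173, 187 and 184 CPM; limma adjusted p = 0.0203), and Smarca4, the BRG1 remodelling ATPase (137, 124 and 139 to 48.9, 38.2 and 97.9 CPM; limma adjusted p = 0.0374). LPN C of Smarca4 stood above LPN A and LPN B, and all 3 SPN libraries (48.0, 67.7 and 77.4 CPM) lay within the LPN range.

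Of 43 histone chaperones and replacement histones 1 rose and 1 fell, 2.33% each way against 1.96% and 2.34% of all genes. The relative median was -0.24, and -0.16 without LPN A or -0.37 with library weights. Asf1b, a chaperone that hands histones over during replication, was at 207, 196 and 249 CPM in EPN and 520.5, 346 and 359.7 CPM in LPN (log2 difference 0.89, limma adjusted p = 0.0407). H1f8, the oocyte linker histone, was at 156, 159.5 and 325 CPM in EPN and 88.1, 55.0 and 59.1 CPM in LPN (log2 difference -1.59, SE 0.31, limma adjusted p = 0.0152), with EPN C highest. Of 35 imprinted genes, which are expressed from 1 parental allele, none rose and 2 fell (5.71% against 2.34% of all genes; 1 fell under median-of-ratios scaling). The relative median was -0.34, but -0.18 against genes of like length and -0.17 without LPN A. These were Phlda2 (89.1, 188 and 138 to 41.0, 40.6 and 42.6 CPM; log2 difference -1.65, limma adjusted p = 0.0119), a maternally expressed regulator of placental growth, and Th, tyrosine hydroxylase (106, 31.3 and 62.7 to 22.4, 23.9 and 18.7 CPM; limma adjusted p = 0.0452).

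Of 73 DNA replication genes 2 rose, 1 fell and 70 did not pass, a share of higher calls near that of all genes. The relative median was 0.32 (0.20 without LPN C), and under median-of-ratios scaling 4 rose and none fell. No member passed without EPN A, EPN C or LPN B, and edgeR called 1, higher. Leaving out LPN C gave 4 higher and 3 lower. Prim1, the primase that starts new strands, was at 66.0, 70.0 and 87.2 CPM in EPN and 155, 201 and 128 CPM in LPN (log2 difference 1.09, limma adjusted p = 0.0315), above SPN (93.3, 78.7 and 57.3 CPM). Rfc5, a subunit of the clamp loader, fell from 80.9, 70.6 and 118 to 48.8, 34.0 and 36.4 CPM (limma adjusted p = 0.0418; SPN 103, 32.1 and 53.6 CPM), and missed the threshold under median-of-ratios scaling (adjusted p = 0.0625). Pcna, the clamp itself, overlapped between the groups at 209, 265 and 263 and 225, 259.6 and 314 CPM (log2 difference 0.11, SE 0.24, limma adjusted p = 0.808).

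Of 78 DNA damage response and repair genes 2 rose and 2 fell (2.56% each way, against 1.96% higher and 2.34% lower of all genes). The relative median was 0.27, and 0.41 without LPN C. No member passed without EPN C or LPN B, and edgeR called 1, higher. Leaving out LPN C gave 4 higher and 3 lower. Beside Parp2, Rad1, a subunit of a checkpoint clamp that loads at damaged DNA, rose from 32.8, 25.6 and 23.1 to 54.6, 69.2 and 60.8 CPM (limma adjusted p = 0.0446). Wrn, the helicase lost in Werner syndrome, was at 78.4, 48.3 and 64.4 CPM in EPN and 18.9, 15.6 and 24.4 CPM in LPN (log2 difference -1.64, SE 0.34, limma adjusted p = 0.0201), with SPN (45.8, 34.6 and 54.1 CPM) above LPN. Smc6, of the SMC5/6 complex, fell from 522–674 to 308–337 CPM (limma adjusted p = 0.0356, and 0.088 under median-of-ratios scaling). Among 32 p53 targets none rose and 1 fell, Cdkn1a, the cyclin-dependent kinase inhibitor p21 (3.12% against 2.34% of all genes). The relative median of the list was -0.43, with -0.28, -0.27 and -0.70 when LPN A, LPN B or LPN C was left out and -0.26 with edgeR or DESeq2. Cdkn1a was at 251, 156 and 66.0 CPM in EPN and 42.0, 41.8 and 62.7 CPM in LPN (log2 difference -1.5, SE 0.37, limma adjusted p = 0.0323); EPN A was highest, EPN C lay just above LPN C, and SPN spanned 34.6–121 CPM. Mdm2, the ubiquitin ligase of p53, overlapped between the groups at 102–182 and 88.5–124 CPM (log2 difference -0.32, limma adjusted p = 0.501).

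Mitotic and cell cycle genes had 1 higher and 3 lower members of 106 (2 and 1 under median-of-ratios scaling). The reported shares were 0.94% and 2.83%, against 1.96% and 2.34% of all genes. The relative median was 0.14, and 0.05 without EPN A. No member passed with edgeR or without EPN A, EPN C or LPN B, while leaving out LPN C gave 4 higher and 6 lower. Plk4, the kinase that starts centriole duplication, was at 206, 122 and 161 CPM in EPN and 72.6, 69.1 and 65.4 CPM in LPN (log2 difference -1.20, SE 0.27, limma adjusted p = 0.0235). Wee2, the oocyte kinase that holds CDK1 inactive, fell from 971, 502 and 851 to 407, 343 and 281 CPM (limma adjusted p = 0.0236), and Fbxo43, the EMI2 inhibitor of the anaphase-promoting complex in the egg, from 28.8, 20.7 and 30.7 to 11.8, 9.20 and 5.28 CPM (limma adjusted p = 0.0499). Anapc11, the catalytic RING subunit of that complex, rose from 53.8, 81.0 and 55.8 to 150.4, 172 and 115 CPM (log2 difference 1.19, limma adjusted p = 0.0277). Of 71 nuclear pore and transport genes 1 rose and 4 fell (3 and 2 under median-of-ratios scaling). The reported shares of these genes were 1.41% and 5.63%, against 1.96% and 2.34% of all genes. Their relative median was 0.11. It came to 0.07 without EPN A, 0.06 without EPN B, 0.05 without LPN A and 0.02 with no filter. No member passed with edgeR or without EPN A, EPN C, LPN A or LPN B, while leaving out LPN C gave 2 higher and 7 lower. The pore gene Nup43 rose from 192–284 to 343–467 CPM. The import receptor genes Ipo8 (128–196 to 55.9–74.5 CPM) and Kpna3 (335–443 to 199–265 CPM), the nesprin gene Syne2 (84.7–144 to 34.2–55.2 CPM) and the pore gene Nup62 (log2 -0.96, outside the naming rule) fell.

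The nucleolus and ribosome assembly genes, the largest list, had the most calls upward by number, though not by share (8.7% of the 2-cell-specific genes rose). Of 127 tested 8 rose (6.3% against 1.96% of all genes), none fell and 119 did not pass, with a relative median of 0.26. Without EPN A the median was 0.10 and 1 gene rose. Leaving out EPN C left 1 call, LPN A 2, EPN B 5 and LPN B none. Without LPN C 14 rose and 1 fell. EdgeR called 1, and under median-of-ratios scaling 6 rose. Their summed level was 21717–26676 CPM in EPN and 30412–32228 CPM in LPN, without overlap, and 18008–23714 CPM in SPN. Brix1, a factor of the large subunit, was at 655, 846 and 836 CPM in EPN and 1479, 1988 and 1228 CPM in LPN (log2 difference 0.99, SE 0.23, limma adjusted p = 0.0258), above SPN (937, 635 and 517 CPM). Fcf1, a nuclease of the small subunit processome, rose from 132, 218 and 185 to 394, 606 and 360.2 CPM (log2 difference 1.33, limma adjusted p = 0.0157), and Polr1e, a subunit of RNA polymerase I, from 188, 260.1 and 190.3 to 444, 470.5 and 394 CPM (log2 difference 1.04, limma adjusted p = 0.0214). The remaining rises, all outside the naming rule, were Utp11 (log2 0.99), Gtpbp4 (0.94), Nifk (0.99) and Riok2 (0.81). Npm1, nucleophosmin, the main protein of the granular component, overlapped at 882, 1491 and 1144 and 1505, 1844 and 1456 CPM (log2 difference 0.47, limma adjusted p = 0.214).

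Of 86 cytosolic ribosomal protein genes 2 rose and none fell, a share close to that of all genes, while 75 had differences above the median of all genes (relative median 0.39). Against genes of like length the median was 0.12, without EPN A it was 0.21 and without EPN B 0.61. The summed level overlapped, at 19702–26756 CPM in EPN and 25786–32082 CPM in LPN, with 20916–31605 CPM in SPN. Rpl39l, a paralog of Rpl39 known from the testis, was at 52.7, 126 and 78.8 CPM in EPN and 148, 254 and 236 CPM in LPN (log2 difference 1.35, limma adjusted p = 0.0251). Rpl41 had overlapping groups, 2091, 3725 and 2477 and 3656, 5786 and 5923 CPM (log2 difference 0.90, limma adjusted p = 0.0473), and missed the threshold under median-of-ratios scaling (adjusted p = 0.0822). Reads of such genes can also come from their many processed copies. Translation factors and tRNA synthetases had 3 higher and 1 lower of 71 (5 and 1 under median-of-ratios scaling). The reported shares were 4.23% and 1.41%, against 1.96% and 2.34% of all genes. The relative median was 0.15, and 0.22 without EPN B. No member passed without EPN A, EPN C or LPN B, and edgeR called 1, higher. Leaving out LPN C gave 8 higher and 3 lower. Dars, aspartyl-tRNA synthetase, rose from 49.4, 61.2 and 54.8 to 146, 132 and 130.3 CPM (log2 difference 1.29, limma adjusted p = 0.0185). Eif2s1, the initiation factor subunit phosphorylated under stress, rose from 291, 431 and 364 to 655, 876 and 689 CPM (limma adjusted p = 0.0213), and Eif3k from 101–127 to 200.4–223 CPM. Eif4e1b, the cap-binding protein of oocytes, fell from 80.4, 39.9 and 56.1 to 26.9, 11.6 and 20.6 CPM (log2 difference -1.55, limma adjusted p = 0.0319). Of 102 splicing genes 3 rose, Lsm8 (64.9–86.0 to 149–234 CPM), Prpf38a (309–393 to 642–811 CPM) and the kinase gene Clk1 (175–225 to 289.8–408 CPM), and Sf3b2 fell (194, 240.1 and 225 to 79.8, 85.1 and 177 CPM; 4 and 0 under median-of-ratios scaling). Of the splicing genes 2.94% rose and 0.98% fell as reported, against 1.96% and 2.34% of all genes. Their relative median was 0.10, with 0.04 without EPN A, 0.06 without LPN C and 0.16 without EPN B or EPN C. No splicing gene passed with edgeR or without EPN A, EPN C, LPN A or LPN B, while leaving out LPN C gave 4 higher and 6 lower.

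Among the lists with at least 10 tested members, mitochondrial ribosomal proteins had the highest median. These proteins form the ribosome that translates the mRNAs of the mitochondrial genome. They had 3 of 78 members higher (3.85% against 1.96% of all genes), none lower and a relative median of 0.57. Of the 78 differences 65 lay above the median of all genes. Under median-of-ratios scaling 4 rose, and with edgeR 2. None was called without EPN A, EPN C or LPN B, 1 without LPN A, 2 without EPN B and 8 without LPN C. Without LPN A the relative median was 0.40, and without LPN C 0.74. The median was 0.44 against genes of like length, and the summed level was 4173–4284 CPM in EPN and 4881–6501 CPM in LPN, without overlap. Mrps30, of the mitochondrial ribosome, was at 54.6, 77.8 and 52.8 CPM in EPN and 153, 162 and 156 CPM in LPN (log2 difference 1.36, SE 0.27, limma adjusted p = 0.0157), while SPN, at 124, 183 and 159 CPM, lay on both sides of the LPN values and above EPN. Mrps10 was at 23.8, 17.7 and 18.7 and 65.4, 58.1 and 47.9 CPM (log2 difference 1.46, limma adjusted p = 0.025), and here SPN, at 10, 21.4 and 6.12 CPM, lay within or below the EPN range. Mrpl45, which attaches the ribosome to the inner membrane, rose from 144–164 to 241–351 CPM.

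Nuclear oxidative phosphorylation genes had 4 of 78 members higher and none lower (5.13% against 1.96% of all genes; 7 under median-of-ratios scaling), with a relative median of 0.42, or 0.23 against genes of like length. None was called with edgeR or without EPN A, EPN C or LPN B, 1 without LPN A, and 2 without EPN B. Without LPN C 3 rose and 1 fell. The summed level of the list overlapped, at 7141–8538 CPM in EPN, 8030–8763 CPM in LPN and 7252–9281 CPM in SPN. The 4 were Uqcr10 (55.9, 85.7 and 53.1 to 175, 209.8 and 147 CPM; log2 difference 1.45, SE 0.28, limma adjusted p = 0.0145) and Uqcrq (80.5, 99.1 and 68.2 to 239, 169.6 and 172 CPM; log2 difference 1.22, limma adjusted p = 0.0205), small subunits of complex III, and Ndufb10 (20.4–26.7 to 43.6–69.9 CPM) and Ndufa7 (44.6–65.3 to 96.4–116 CPM) of complex I. In SPN Uqcrq was at 77.4, 475 and 356 CPM, with SPN A inside the EPN range and the other two above LPN. The 13 mitochondrially encoded genes had no call: their summed level was 33603 ± 7188 CPM in EPN and 27794 ± 5866 CPM in LPN (SD, n = 3; exact permutation p = 0.5), and COX1, a catalytic subunit of complex IV, was at 9024, 12128 and 10943 and 7056, 9459 and 6387 CPM (log2 difference -0.50, limma adjusted p = 0.192). ND6, with the smallest p of the 13, was at 105–175 CPM in EPN and 65.7–119 CPM in LPN (limma adjusted p = 0.175). The relative median of these genes was 0.04 and ran from -0.30 (without LPN B) to 0.28 (without LPN C) over the alternatives.

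The early cleavage embryo lives on pyruvate and lactate, and its use of glucose rises only later. Of 53 genes of pyruvate use, glycolysis and the TCA cycle none rose and 4 fell (7.55% against 2.34% of all genes), with a relative median of -0.36; under median-of-ratios scaling 1 fell. With edgeR, or without EPN A, EPN C or LPN B, no member passed; 1 fell without EPN B, 2 without LPN A and 6 without LPN C. Ldhb, a lactate dehydrogenase subunit stored by the oocyte, was at 1543, 1296 and 1504 CPM in EPN and 1083, 490.0 and 618 CPM in LPN (log2 difference -1.06, SE 0.26, limma adjusted p = 0.0293). The glycolytic genes Gpi1 (61.7, 49.5 and 47.3 to 22.6, 10.5 and 25.9 CPM; limma adjusted p = 0.0361) and Eno1 (114, 84.2 and 101 to 47.0, 35.5 and 55.1 CPM; limma adjusted p = 0.0374) and the succinyl-CoA ligase gene Suclg2 (71.6, 37.8 and 39.9 to 29.5, 10.8 and 13.7 CPM; limma adjusted p = 0.0457) were the others. The SPN values of Gpi1, 23.4, 22.4 and 23.4 CPM, lay in the LPN range, and those of Suclg2, 69.9, 39.2 and 56.6 CPM, above it. Only Gpi1 passed under median-of-ratios scaling (adjusted p = 0.0416).

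Among genes that keep proteins in order, the proteasome, which degrades ubiquitin-marked proteins, had 3 of 50 members higher and 1 lower. These shares were 6% and 2%, against 1.96% and 2.34% of all genes. Under median-of-ratios scaling 3 rose and none fell. No member passed with edgeR or without EPN B, EPN C, LPN A or LPN B. Without EPN A 1 rose, and without LPN C 8 rose and 1 fell. The relative median was 0.51 (0.41 against genes of like length, 0.35 without LPN A and 0.66 without LPN C). Of the 50 differences 41 lay above the median of all genes. The summed level of the list was 6660.4–6841 CPM in EPN, 7359.6–9366 CPM in LPN and 6199–6566 CPM in SPN. Psmc5, an ATPase of the base, was at 73.1, 29.5 and 28.5 CPM in EPN and 139, 103 and 82.5 CPM in LPN (log2 difference 1.40, SE 0.35, limma adjusted p = 0.0331), with EPN A well above the other EPN libraries. The core subunit gene Psma3 (206–252 to 341–506 CPM) and the lid deubiquitinase gene Psmd14 (142–246 to 307–437 CPM) rose. Psmd3, another lid subunit, fell from 62.6, 41.4 and 59.3 to 23.8, 21 and 20.9 CPM (limma adjusted p = 0.0395, and 0.0516 under median-of-ratios scaling), below SPN (69.7, 75.6 and 100.2 CPM). The 52 autophagy and lysosome genes had no call in the limma fit as reported. Limma called 2 higher on median-of-ratios or TMM scaling and 4 with library weights, and DESeq2 called 5. With edgeR none passed, and leaving out 1 library gave at most 1 call. The closest, Gabarap, was at 50.2–86.9 CPM in EPN and 113–148 CPM in LPN (limma adjusted p = 0.0554), and 6 of 18 alternatives called it. The summed level of the list was 8273–9074 CPM in EPN and 10077–10404 CPM in LPN, without overlap, and 5979–7809 CPM in SPN. The relative median of these genes was 0.13, with 0.21 against genes of like length or without EPN B and 0.02 without LPN C.

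Of 66 heat shock and folding genes none rose and 4 fell (6.06% against 2.34% of all genes), with a relative median of -0.10 (-0.15 against genes of like length, -0.01 without EPN C and -0.04 without LPN B). Under median-of-ratios scaling 1 rose and 1 fell, without EPN B 1 fell, and without LPN C 2 rose and 10 fell. No member passed with edgeR or when any of the other 4 libraries was left out. Hspa2, an HSP70 known from spermatogenesis, was at 66.7, 48.6 and 88.7 CPM in EPN and 9.45, 18.9 and 33.3 CPM in LPN (log2 difference -1.80, SE 0.40, limma adjusted p = 0.0236). Ahsa1, which activates HSP90, fell from 399–498 to 236–259.8 CPM, and the endoplasmic reticulum chaperones Hsp90b1 and Hspa5 from 105–155 to 46.0–73.0 CPM and from 369.8–599 to 206–267 CPM. These 3 had adjusted p = 0.0785, 0.0516 and 0.0903 under median-of-ratios scaling. In the unfolded protein and integrated stress response 2 of 37 genes rose and 3 fell (2 and 1 under median-of-ratios scaling). The reported shares were 5.41% and 8.11%, against 1.96% and 2.34% of all genes. No member passed with edgeR or without EPN A, EPN C or LPN B. The relative median was -0.34, and -0.56 without EPN B. Ddit3, the transcription factor CHOP, rose from 143, 117 and 132 to 254, 357 and 211 CPM (log2 difference 1.03, limma adjusted p = 0.0315), above SPN (80.3, 103 and 108 CPM), and so did Eif2s1. Mthfd2, a mitochondrial folate enzyme, fell from 295, 182 and 259 to 135, 95.1 and 119 CPM (limma adjusted p = 0.0315), beside Asns and Hspa5.

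Of 47 oxidative stress response genes 2 rose, 2 fell and 43 did not pass (4.26% each way against 1.96% higher and 2.34% lower of all genes; 2 and 1 under median-of-ratios scaling). Their relative median was -0.21, -0.35 against genes of like length, -0.11 with edgeR or DESeq2, and -0.12 to -0.14 without LPN B, EPN A, LPN C or EPN B. No member passed without EPN A or LPN B, and 1, lower, without EPN C or LPN A or with edgeR. Leaving out LPN C gave 2 higher and 3 lower. Mt1, a metallothionein, was at 1255, 1871 and 1099 CPM in EPN and 2790.0, 2499.9 and 2850.2 CPM in LPN (log2 difference 0.98, SE 0.23, limma adjusted p = 0.0259), with 1747, 3446 and 2704 CPM in SPN, where A lay in the EPN range, C in the LPN range and B above both. Gsr, glutathione reductase, rose from 22.2, 31.1 and 15.8 to 55.4, 58.9 and 59.2 CPM (limma adjusted p = 0.0347). Gpx1, which uses the glutathione that Gsr restores, fell, and so did G6pdx, the glucose-6-phosphate dehydrogenase that supplies NADPH, from 178, 92.2 and 142 to 83.9, 41.5 and 61.6 CPM (limma adjusted p = 0.0459). Apoptosis genes had 1 call of 42, Bcl2l10, which fell (2.38% against 2.34% of all genes), and a relative median of -0.02.

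Oocyte-derived transcripts had the most calls downward of any list: of 81 tested 9 fell (11.1% against 2.34% of all genes), 1 rose and 71 did not pass, with a relative median of -0.38. Under median-of-ratios scaling 5 fell and 2 rose. Without EPN A 1 fell, and without EPN C or LPN B, or with edgeR, none did; 7 fell without EPN B or LPN A, and 9 without LPN C, where the relative median was -0.23. Library weights gave -0.25. Their summed level was 73113–81916 CPM in EPN, 42304–68632 CPM in LPN and 75192–102532 CPM in SPN, and LPN lay below both without overlap. Zbed3, a component of the subcortical maternal complex, was at 3578, 1782 and 2756 CPM in EPN and 1058, 523 and 1322 CPM in LPN (log2 difference -1.53, SE 0.30, limma adjusted p = 0.0157), with SPN at 4083, 1643 and 2907 CPM. Bcl2l10, a BCL2 relative of oocytes, fell from 1102, 1151 and 983 to 676, 395 and 466 CPM (log2 difference -1.11, limma adjusted p = 0.0201, and 0.0505 under median-of-ratios scaling). H1f8, Wee2 and Plat also belong to this list. Outside the naming rule, the germ cell RNA-binding protein gene Dazl (log2 -1.32), the oocyte genes Nlrp4a (-1.15) and Nlrp4f (-1.06) and Rfpl4 (-0.88) fell, and Rfpl4b (1.17) rose. Gdf9, the oocyte growth factor, was at 135, 81.2 and 106 and 70.7, 51.6 and 63.4 CPM, apart but not called (log2 difference -0.77, limma adjusted p = 0.114). Zp3, of the zona pellucida, lay the other way, at 109, 119.6 and 93.3 CPM in EPN and 147, 212 and 230.1 CPM in LPN (log2 difference 0.85, limma adjusted p = 0.062).

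In the machinery that clears maternal mRNA 5 of 49 genes fell and none rose (10.2% against 2.34% of all genes), with a relative median of -0.27, or -0.10 against genes of like length; 2 fell under median-of-ratios scaling. None fell without EPN A or LPN B, 1 without EPN C or LPN A or with edgeR, 3 without EPN B and 5 without LPN C. Beside Cnot6l these were Ythdf3, a reader of m6A, at 143, 116 and 99.3 CPM in EPN and 51.0, 47.4 and 62.7 CPM in LPN (log2 difference -1.13, limma adjusted p = 0.0315), Marf1, a ribonuclease of the oocyte, at 266, 162 and 182 and 96.3, 99.5 and 90.1 CPM (limma adjusted p = 0.0319), Lsm14b, of oocyte RNA granules, at 23.4, 29.2 and 21.7 and 7.71, 3.68 and 11.6 CPM (limma adjusted p = 0.0473), and the decapping enzyme gene Dcp2 (log2 -0.91, outside the naming rule). The LPN libraries lay below every EPN library for the 4 with values here. The summed level of the list overlapped, at 7684–8537 CPM in EPN and 6769–8243 CPM in LPN.

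Among 65 cytoskeleton and adhesion genes 4 fell and none rose (6.15% against 2.34% of all genes), with a relative median of -0.51, and 3 lower and 1 higher under median-of-ratios scaling. Leaving out EPN A or LPN B left 1 call, EPN C 2, EPN B 3 and LPN A 4, leaving out LPN C gave 11, and edgeR called 2. Beside Tuba1c and Tubb6, Rdx, radixin, which links actin to the membrane, was at 208, 183 and 208 CPM in EPN and 95.7, 77.8 and 91.7 CPM in LPN (log2 difference -1.17, SE 0.25, limma adjusted p = 0.0201), and SPN (157, 200.4 and 222 CPM) lay above LPN. Tubb2a, another beta-tubulin gene, fell from 120.1, 62.7 and 82.3 to 59.8, 26.4 and 27.2 CPM (limma adjusted p = 0.0473, and 0.0654 under median-of-ratios scaling). Tubulin genes are alike in sequence, and the counting of reads that map to several of them is not given in the sources used here. Markers of the blastocyst lineages, which are low at this stage, had no call among 29 (relative median -0.47, and -0.72 with a pseudocount of 0.1 or -0.79 with edgeR; Dab2, with the smallest p, at 41.1–81.2 and 20.0–32.5 CPM, limma adjusted p = 0.0645). The 20 interferon-stimulated and RNA sensing genes had none either (Ifitm3 at 92.6–107 and 49.7–77.1 CPM, limma adjusted p = 0.10), nor had the 7 Y-linked genes or the 8 tested cumulus genes. Uty, the Y-linked gene with the smallest p, was at 0, 31.7 and 14.5 CPM in EPN and 24.8, 30.6 and 60.7 CPM in LPN (limma adjusted p = 0.107), and Greb1, the cumulus gene with the smallest, at 3.54, 2.11 and 2.32 and 0.514, 0.394 and 1.34 CPM (limma adjusted p = 0.274). Of 5 tested sperm markers 1 rose, or 20% against 1.96% of all genes. This was Ldhc, the lactate dehydrogenase of sperm (8.89, 25.6 and 10.8 to 43.7, 61.5 and 28.1 CPM, limma adjusted p = 0.0451). The other 4 did not pass, and 3 of the 5 lay below the median of all genes. Odf2, the most abundant, was at 50.2–108 CPM in EPN and 44.3–48.6 CPM in LPN. Of 4 blood markers 1 fell, or 25% against 2.34% of all genes. This was Hba-a1, alpha-globin (66.5, 77.1 and 32.9 to 9.13, 22.7 and 26.1 CPM, limma adjusted p = 0.0384). Hba-a2, another alpha-globin gene, was not called but was lower without overlap, at 1.01–2.73 CPM in EPN and 0–0.263 CPM in LPN. Here 2 of the 4 lay above the median of all genes and 2 below, and Cd68 overlapped between the groups at 2.58–5.17 and 2.10–10.5 CPM. Calhm3, a subunit of a calcium-regulated channel, at 78.6, 57.1 and 104 and 141, 89.6 and 121 CPM, and Ciart, a circadian repressor, at 59.6, 100.2 and 119.8 and 68.8, 28.9 and 62.9 CPM, had overlapping groups (limma adjusted p = 0.249 and 0.16).

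**Figure D4:**
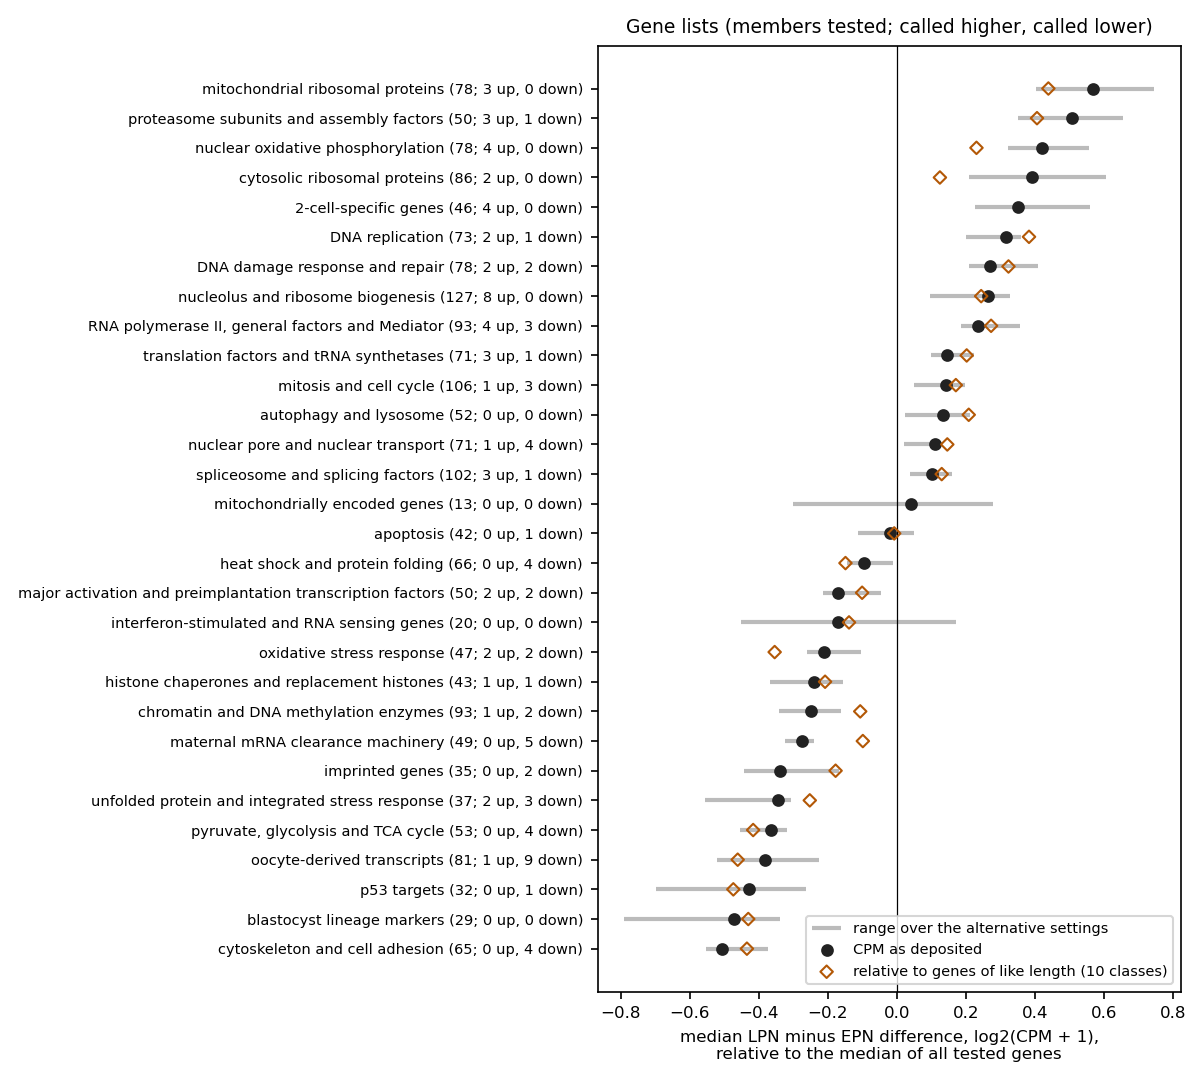
Black points give the median LPN minus EPN difference of each gene list on the log2(CPM + 1) scale, relative to all tested genes, for the 30 lists with at least 10 tested members; grey bars span the alternative settings and open diamonds set members against genes of like transcript length. Mitochondrial ribosomal proteins (0.57), the proteasome (0.51) and oxidative phosphorylation (0.42) lie highest, and cytoskeleton (-0.51), blastocyst markers (-0.47) and p53 targets (-0.43) lowest; the bar crosses 0 for the mitochondrially encoded, apoptosis and interferon lists.

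The difference between the groups went with transcript length. Of the tested genes 13201, and 567 of the 588 called, matched a symbol in GENCODE M21, where length is that of the longest annotated transcript. With genes in 5 equal classes from the shortest to the longest, the median LPN minus EPN difference was 0.21, -0.03, -0.16, -0.28 and -0.44. The GC content of the same transcripts went with the difference too. From the lowest to the highest of 5 classes the median was 0.01, -0.11, -0.15, -0.21 and -0.27. The class lowest in GC held 83 of the higher and 65 of the lower calls, and the highest 17 and 53. By length, the shortest class held 89 of the higher and 43 of the lower calls, and the longest 19 and 107. Median length was 2235 bases for higher, 3788 for lower and 3135 for all matched genes. By library, the median deviation from the mean of the libraries was higher for the shortest than for the longest class by 0.40, 0.45 and 0.09 in LPN, and the difference was -0.44, -0.10 and -0.40 in EPN and -0.06, -0.43 and -0.63 in SPN. All LPN libraries were above 0 and all EPN libraries below it, so length and the timing of transfer cannot be told apart across libraries. The groups with short genes, the cytosolic ribosomal proteins and oxidative phosphorylation genes, had medians of 0.12 and 0.23 when set against genes of like length, down from 0.39 and 0.42, and the mitochondrial ribosome, the proteasome, replication, repair and oocyte genes kept 0.44, 0.41, 0.38, 0.32 and -0.46. The check was void for the list of 2-cell-specific genes, of which 71.7% had a length, other than for those 33 members themselves, and for the mitochondrially encoded genes, of which none had.

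**Figure D5:**
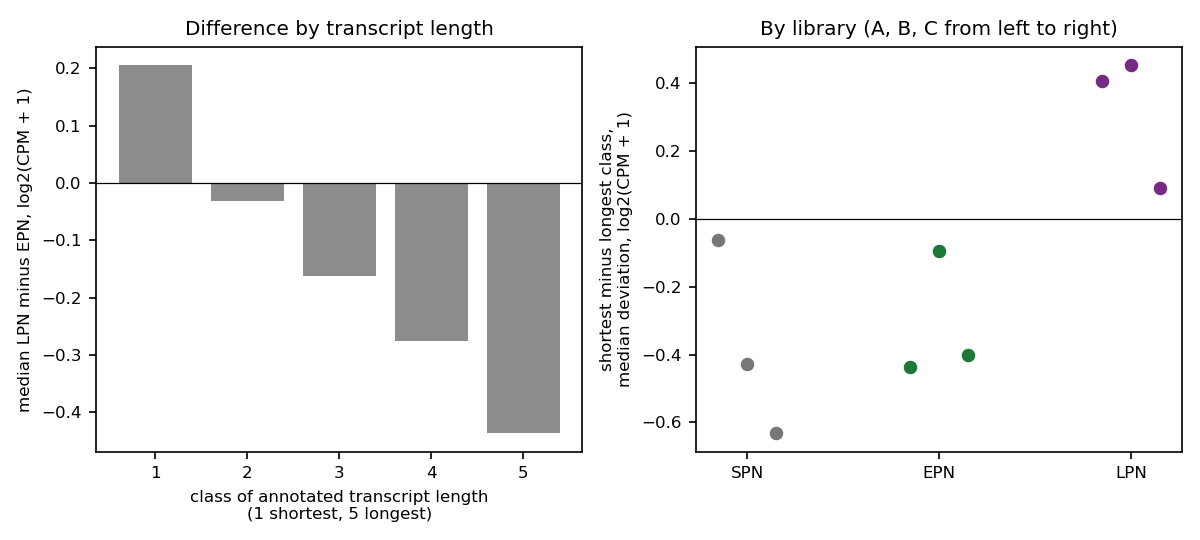
The left panel gives the median LPN minus EPN difference (log2(CPM + 1)) in each of 5 classes of annotated transcript length, from 0.21 in the shortest to -0.44 in the longest. The right panel gives, for each library as a point, how far the shortest class lay above the longest (median deviation, log2(CPM + 1)); LPN lies at 0.09 to 0.45 and EPN at -0.44 to -0.10.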

How the data were processed

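Poly(A) RNA of 9 pools of 3 embryos was sequenced as 150-bp paired ends after Smart-seq2 v4 and Nextera XT preparation, per the labels' protocols. The submitters' processing notes name Trim Galore 0.6.7, HISAT2 2.2.1, edgeR, R 3.3.3 and GRCm39; the read counter and annotation are not given in the sources used here. Values of 19359 genes were deposited by the authors as CPM. In the 6 libraries compared they were whole multiples of 1 read (100% within 0.01 reads), which returned reads and totals. The table left out 3.66% to 4.40% of the reads in the EPN libraries and 4.57% to 5.68% in the LPN libraries, without overlap. The part of this difference in the results was not tested. Of the tested genes 126, with 6 called, belong to sets of identical values in all libraries and count as repeats.

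LPN was compared with EPN by limma 3.58.1 in R 4.3.3 (two-sided, with a mean-variance trend, 4 residual and 16.2 prior degrees of freedom) on log2(CPM + 1), where folds of low genes are understated. Benjamini-Hochberg adjustment ran over all 13672 genes, with calls at adjusted p under 0.05. Other pseudocounts, filters, scalings and fits, edgeR 4.0.16 and DESeq2 1.42.0 on recovered reads, and leaving out each library served as alternatives. Lengths came from GENCODE M21, an older build, by symbol.

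The members and the 34 gene lists were chosen with earlier results of these data known. The named genes are the 12 largest called differences each way (mean of 5 CPM or more, no overlap of the groups, no predicted name), up to 4 called members of each list or the 1 with the smallest p, and 12 more in every case: Calhm3, Cdkn1a, Ciart, COX1, Gdf9, Mdm2, Npm1, Pcna, Pou5f1, Zfp352, Zp3 and Zscan4d. Other genes are said to lie outside this rule or to be chosen after their values were seen.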

Additional observations from a re-analysis of the deposited data

How the results depend on the processing

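The counts of called genes, 588 in all with 268 higher and 320 lower in LPN, depended on the setting. In the same order they were 229, 114 and 115 with a pseudocount of 0.1 CPM, 268, 121 and 147 in a limma fit of all 9 libraries, 1368, 615 and 753 with library weights, 59, 50 and 9 with edgeR, and 1419, 871 and 548 with DESeq2. With no filter on low values limma called 0 genes (3392 at an unadjusted p under 0.05; edgeR 59 and DESeq2 1419 with the filter). Median-of-ratios and TMM scaling left 167 and 185 lower genes. Leaving out 1 library gave 4 to 1026 calls, 1 to 392 of them higher and 3 to 634 lower, with fewer samples in each fit. The cause of the other shifts was not tested. Same-lettered EPN and LPN libraries had correlated deviations of r = 0.085 (A), 0.104 (B) and 0.035 (C) across genes. Pairs of unlike letter lay between -0.083 and -0.00013, so each library correlated best with its own letter. The labels do not say what the letters share, and they were not taken as pairs. With the letter as a replicate block 1555 genes were called, 694 higher and 861 lower. Whether the letters mark a shared day or batch was not tested. Of the alternative values for named genes, 1401 kept direction and side of the threshold, 841 kept the direction and no longer passed, and 18 newly passed. The other 3 changed direction, all in genes that were not called. The log2 difference of Zscan4d came to -0.068 without EPN C (up to 0.67 with another library left out). The log2 difference of Pcna came to -0.00219 without EPN A and -0.016 without LPN C (up to 0.22). Of those for list medians 629 stayed within the spread between replicates and 15 moved by more; the latter include the medians of cytosolic ribosomal proteins and oxidative phosphorylation against genes of like length, an alternative chosen after seeing the data. The LPN minus EPN difference of each library measure kept its sign in the alternatives, and was not set against a spread. For the percent of CPM in the most abundant genes it was -1.25 with 50 genes and -0.25 with 200. A pseudocount of 1 CPM is worth several reads in every library, so differences of genes at a few CPM are limited by depth.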
